A study of Rattus norvegicus with 46 samples.

Results

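The acetylcholine and choline genes described here are 9 genes of rat frontal lobe: Slc5a7 and Chat, which act in making acetylcholine, the nicotinic receptor subunit genes Chrna2, Chrna4 and Chrna7, the cholinesterase gene Bche and the acetylcholinesterase anchor gene Colq, and the choline transporter and kinase genes Slc44a1 and Chka. A probe set, a group of short probes read out as 1 value, was a member when the platform table gave it the symbol of one of these genes and no other symbol. This gave 11 probe sets of the 15866 on the array after control probe sets were left out, and 9 genes of 10411 with a probe set of their own. Slc44a1 has 3 probe sets and the others have 1 each. A probe set was called too dim to test for dose when its mean over the arrays lay under the 30th percentile of all means, which is a log2 intensity of 6.90. Chat was too dim, with a mean of 6.36, and 10 member probe sets were tested.

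The rats were male F344 animals aged 11 to 12 weeks that received 1 dose of chlorpyrifos or its vehicle and were killed after 96 hours. Chlorpyrifos is an organophosphate insecticide whose oxon metabolite inhibits acetylcholinesterase. A piece of frontal lobe from each animal gave RNA for 1 Affymetrix array. Experiments A, B and C were separate and each had its own vehicle animals. The arrays used from experiment A were 3 vehicle, 3 at 1 mg/kg, 5 at 10 mg/kg and 3 at 50 mg/kg. Those from experiment B were 4 vehicle, 3 at 0.5 mg/kg, 1 at 5 mg/kg and 3 at 30 mg/kg. Those from experiment C were 3 vehicle, 4 at 1 mg/kg, 3 at 5 mg/kg and 4 at 10 mg/kg. The groups differ by experiment and dose alone, as far as the labels say, and no allele or transgene is named.

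Of the 46 arrays, 39 were used, since the other 7 hold their values in another row order: their correlation with the 39 lay between -0.0068 and 0.0025, and among the 39 it lay between 0.935 and 0.979. Left out of experiment A were animal 1 of vehicle, animal 4 of 1 mg/kg and animal 1 of 50 mg/kg. Left out of experiment B was animal 1 of 0.5 mg/kg, and out of experiment C animal 2 of 5 mg/kg and both animals given 30 mg/kg. Median intensity ran from 112 to 286 before normalization. The 3' to 5' ratio of the actin control probe sets was 4.72 in 1 mg/kg animal 1 of experiment C and ran from 1.23 to 2.15 in the other arrays. In experiment C the labels call vehicle animal 1 and animals 2 and 3 at 10 mg/kg a first repeat, with no word of what was repeated. Markers of cortical projection neurons were well measured in every array, with mean log2 intensities from 10.04 to 11.07. Striatal markers varied more between pieces, from 8.0 to 11.17.

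A cholinergic neuron takes up choline through the high-affinity transporter, joins it to an acetyl group with choline acetyltransferase, and loads the product into vesicles. Released acetylcholine acts on nicotinic receptors, which are ion channels, and on muscarinic receptors, which couple to G proteins, until a cholinesterase splits it. In the forebrain the neurons that make acetylcholine are few, and are found in the basal forebrain and among the interneurons of the striatum, whereas choline for membrane lipids is taken up and phosphorylated in most cells.

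The question of the design was which transcripts differed from vehicle at each dose. Levels are log2 normalised intensities and changes are log2 differences from vehicle ± SE, where a difference of 1 is a 2-fold change. Tests are two-sided, fitted in limma over 11106 probe sets with experiment as a term, and adjusted p-values are by Benjamini-Hochberg over all of them with a threshold of 0.05. No member passed at any dose: 0 of 10 did at 0.5, 1, 5, 10, 30 and 50 mg/kg, in the F test over all doses and in the trend with dose. Over all probe sets tested, 0.0180% passed at 50 mg/kg and 0% in each of the others. With an unadjusted p under 0.05, limma gave 1 of 10 members at 0.5 mg/kg against 7.62% of all probe sets, 1 at 10 mg/kg against 2.68%, 1 at 50 mg/kg against 7.99% and 1 in the F test against 6.19%. It gave 0 of 10 at 1 mg/kg against 2.54%, at 5 mg/kg against 2.48%, at 30 mg/kg against 9.25% and in the trend against 7.66%. All 4 of the values under 0.05 belong to Slc5a7. The median change of the 10 member probe sets ran from -0.083 at 1 mg/kg to 0.13 at 0.5 mg/kg, beside medians over all probe sets between -0.0051 and 0.0058.

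Slc5a7 encodes the high-affinity choline transporter of cholinergic nerve endings, and Chat encodes choline acetyltransferase, the enzyme that makes acetylcholine. Their levels varied more between animals than those of the other members, and the 2 moved together from array to array. The 250 bases before the RefSeq start of each gene in the rat build GRCr8 are given because these 2 members moved together. Capitals mark matches to any of the searched motifs on either strand: the GC box GGGCGG, the TATA box TATAAA, the CCAAT box CCAAT, the E-box CACGTG, the LIM homeobox core TAATTA, the SOX cores ACAAAG and ACAATG, and the RE1 element by its known pattern. Slc5a7 is on chromosome 9, minus strand, at chr9:7953510-7953759, and Chat is on chromosome 16, minus strand, at chr16:7723417-7723666.
Slc5a7: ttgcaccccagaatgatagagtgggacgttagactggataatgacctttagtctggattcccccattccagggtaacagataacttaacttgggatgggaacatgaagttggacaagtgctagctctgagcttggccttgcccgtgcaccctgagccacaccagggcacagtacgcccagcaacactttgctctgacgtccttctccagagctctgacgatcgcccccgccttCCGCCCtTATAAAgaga
Chat: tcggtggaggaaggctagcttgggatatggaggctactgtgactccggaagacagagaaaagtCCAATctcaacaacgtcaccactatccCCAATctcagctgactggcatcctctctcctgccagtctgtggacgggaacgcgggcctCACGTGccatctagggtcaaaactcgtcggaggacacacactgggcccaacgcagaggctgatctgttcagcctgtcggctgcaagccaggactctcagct

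The Slc5a7 window holds a GC box starting 17 bases and a TATA box starting 10 bases before the annotated start, and 53.2% of its bases are G or C. The Chat window holds CCAAT boxes at 187 and 160 bases and an E-box at 101 bases before the start, with 57.2% G or C. Thus none of these motifs was found in both windows. Over 33465 rat windows of the same length, 30.5% hold the GC box, 12.9% the TATA box, 34% the CCAAT box and 5.59% the E-box, 4.86% hold the LIM homeobox core, 25.3% a SOX core and 0.0448% the RE1 element. No match says only that these letters are not in the window.

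In experiment A, Slc5a7 stood at 7.77, 6.75 and 6.24 in vehicle animals 2, 3 and 4. It stood at 8.35, 8.05 and 8.80 in the 50 mg/kg animals 2, 3 and 4. Every 50 mg/kg animal was thus above every vehicle animal of its experiment, which held for 8.35% of all probe sets tested. The difference was 1.47 ± 0.44, or 2.77-fold, with an unadjusted p of 0.00192 and an adjusted p of 0.285 in limma, so it did not pass. Within experiment A alone the same contrast gave 1.48 ± 0.48 with an adjusted p of 0.243. The F test over all doses gave an unadjusted p of 7.86e-04 and an adjusted p of 0.443. The dose of 50 mg/kg was given only in experiment A, so no other experiment repeats this value.

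At 1 mg/kg in experiment A, Slc5a7 stood at 7.39, 6.34 and 7.03. At 10 mg/kg it stood at 7.45, 5.94, 5.46, 6.27 and 6.38 in animals 1 to 5. Both groups overlapped the vehicle animals, and animal 3 at 10 mg/kg was the lowest of the 39 arrays. In experiment B the vehicle animals stood at 6.73, 8.60, 6.82 and 6.70. Animal 2 was far above the other 3 and above every dosed animal of its experiment. The 0.5 mg/kg animals stood at 6.29, 7.20 and 5.98, the 5 mg/kg animal at 7.82, and the 30 mg/kg animals at 6.57, 7.10 and 8.06. None of these doses was separated from vehicle, and the single 5 mg/kg array has no spread of its own. The change at 0.5 mg/kg was -0.92 ± 0.44, with an adjusted p of 0.641 in limma, and without vehicle animal 2 of experiment B it was -0.59, with an adjusted p of 0.872.

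In experiment C the vehicle animals stood at 8.04, 6.98 and 7.49 for Slc5a7. The 1 mg/kg animals stood at 6.67, 6.85, 7.58 and 7.59, and the 5 mg/kg animals 1, 3 and 4 at 6.35, 6.21 and 7.24. Both of these groups overlapped vehicle. The 10 mg/kg animals stood close together at 6.62, 6.61, 6.73 and 6.52. All lay below every vehicle animal, which held for 2.98% of all probe sets tested. The contrast at 10 mg/kg within experiment C was -0.88 ± 0.45, with an adjusted p of 0.746 in limma. Over experiments A and C together the change at 10 mg/kg was -0.62 ± 0.31, with an adjusted p of 0.999. By group mean ± SD the order ran from 6.30 ± 0.74 (n = 5) at 10 mg/kg in experiment A, through 6.92 ± 0.78 (n = 3) in A vehicle, 7.21 ± 0.93 (n = 4) in B vehicle and 7.50 ± 0.53 (n = 3) in C vehicle, to 8.40 ± 0.38 (n = 3) at 50 mg/kg. Between them lay 6.49 ± 0.64 (n = 3) at 0.5 mg/kg in B, 6.60 ± 0.56 (n = 3) and 6.62 ± 0.085 (n = 4) at 5 and 10 mg/kg in C, 6.92 ± 0.54 (n = 3) at 1 mg/kg in A, 7.17 ± 0.48 (n = 4) at 1 mg/kg in C and 7.24 ± 0.75 (n = 3) at 30 mg/kg in B. Neighbours in this order differed by less than their spread except at the top, where the single 5 mg/kg array of experiment B at 7.82 lies next below the 50 mg/kg animals.

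**Figure D1:**
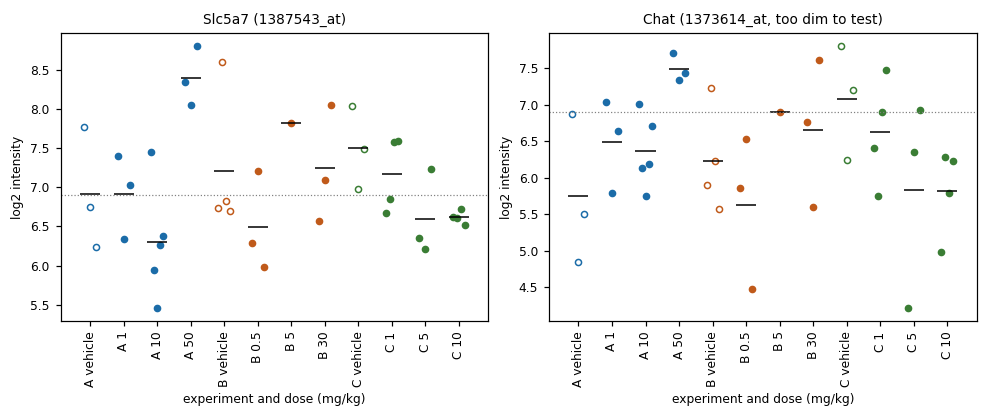
Log2 normalised intensity of Slc5a7 and Chat (vertical axes) in each of the 39 arrays by experiment and dose (horizontal axes). Open points are vehicle animals, filled points dosed animals, bars group means, and the dotted line is the limit of 6.90 under which a probe set's mean counts as too dim. The 50 mg/kg animals lie above the vehicle animals of experiment A for both genes. Of the probe sets tested, which leave out Chat, 8.35% did so.

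Chat was measured near the bottom of the range, with 26 of 39 arrays under the dim limit, and its dose changes were not tested. Its values in experiment A were 6.88, 4.85 and 5.51 in vehicle animals 2, 3 and 4. They were 7.71, 7.34 and 7.43 in the 50 mg/kg animals. Those groups did not overlap. The share of probe sets without overlap was counted over tested probe sets only, so it does not cover Chat. At 1 mg/kg Chat stood at 7.03, 5.79 and 6.64, and at 10 mg/kg it ran from 5.75 to 7.01. In experiment B, Chat stood at 5.91, 7.23, 6.22 and 5.56 in the vehicle animals, and the highest was again animal 2. Its dosed animals ran from 4.48 at 0.5 mg/kg to 7.61 at 30 mg/kg. In experiment C the vehicle animals stood at 7.80, 6.24 and 7.20, and the 10 mg/kg animals at 4.99, 6.28, 5.79 and 6.23, which overlapped them. Slc5a7 also sat low on the scale, with 21 of 39 arrays under the limit, though its mean of 7.01 passed it.

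Across the 39 arrays, with each experiment centred on its own mean, Chat and Slc5a7 correlated with r = 0.753 and Spearman's rho = 0.789. The permutation p, shuffling arrays within experiments, was 1e-05, the smallest that 100000 permutations can give, and 0.00055 after adjustment over the 55 pairs of member probe sets. Without the 2 arrays farthest from the median of Slc5a7 r was 0.746. Within experiments A, B and C it was 0.779 (14 arrays), 0.813 (11 arrays) and 0.777 (14 arrays). This was the only pair of the 55 to pass after adjustment.

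Levels of Slc5a7 moved with markers of the striatum, the region under the frontal cortex. Of 15 striatal markers listed, 12 were tested, Gpr6 was too dim and 2 were not analysed here. Against the mean of the 12, Slc5a7 gave r = 0.667, rho = 0.655 and an adjusted permutation p of 9.53e-04 over 143 pairs of member and marker list. Without the 2 arrays farthest from the median of the marker mean r was 0.633. Within experiments A, B and C it was 0.789, 0.504 and 0.659. Against the 8 tested markers of cortical projection neurons it gave r = -0.645 and rho = -0.518, with an adjusted p of 9.53e-04 for r, and r was -0.542 without the 2 farthest arrays. Chat gave r = 0.57 with the striatal list and -0.615 with the cortical list, with adjusted p-values of 0.00429 and 0.00143. For Chat within experiment B these values were 0.212 and -0.475.

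The marker levels are given beside the Slc5a7 values. The striatal mean was 10.01 ± 0.54 (n = 3) at 50 mg/kg and 9.01 ± 1.09 (n = 3) in A vehicle, with 12 of 12 markers higher at 50 mg/kg, where 51.6% of all probe sets were higher. Their summed intensity ran from 11771 to 25539 in the former and from 6087 to 22419 in the latter. The cortical mean was 10.22 ± 0.23 against 10.88 ± 0.15, with 0 of 8 markers higher at 50 mg/kg, and the summed intensity ran from 17829 to 23198 against 27622 to 33784. The 4 tested of 6 hypothalamic markers averaged 8.46, 10.92 and 11.28 in the 50 mg/kg animals and 8.39, 7.15 and 7.26 in the vehicle animals, with Hcrt and Trh too dim. Their summed intensity ran from 1443 to 14441 at 50 mg/kg and from 702 to 1500 in vehicle. In experiment C the striatal mean was 10.35 ± 0.76 (n = 3) in vehicle and 9.36 ± 0.57 (n = 4) at 10 mg/kg, with 0 of 12 markers higher at 10 mg/kg, where 50.5% of all probe sets were higher, and sums from 15130 to 39946 and from 8858 to 22524. In experiment A the striatal mean was 9.05 ± 1.07 (n = 5) at 10 mg/kg, where the Slc5a7 mean was lowest, and 9.59 ± 0.78 (n = 3) at 1 mg/kg, where Slc5a7 had the same mean as in vehicle. In experiment B it was 9.07 ± 0.30 (n = 3) at 30 mg/kg and 9.79 ± 0.88 (n = 4) in vehicle, with Slc5a7 means of 7.24 and 7.21. Of 8 markers of basal forebrain cholinergic neurons, Zic1 alone was tested, Ngfr, Isl1 and Slc18a3 were too dim and 4 were not analysed here. The part of these markers in the Slc5a7 and Chat values was not tested. In tissue pieces of this kind fewer cells of a type and less RNA per cell cannot be told apart.

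**Figure D2:**
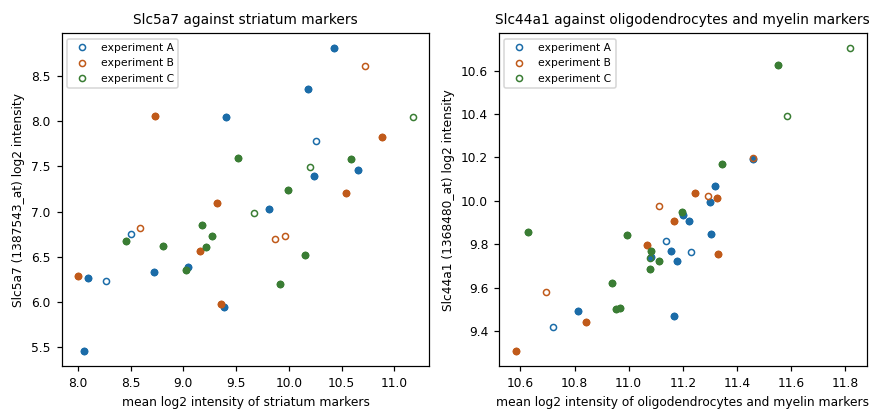
Log2 normalised intensity of Slc5a7 against the mean of 12 striatal markers, and of Slc44a1 probe set 1368480_at against the mean of 9 myelin markers, one point per array. Colours give the experiment and open points are vehicle animals. Both relations rise, with r = 0.667 and r = 0.868 after centring each experiment.

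The nicotinic subunit genes were not separated from vehicle at any dose beyond the threshold. Chrna4 encodes the alpha4 subunit, which with beta2 forms the main high-affinity nicotine receptor of brain, Chrna7 encodes the alpha7 subunit of a calcium-permeable receptor, and Chrna2 encodes the alpha2 subunit, which is found in restricted groups of neurons. None had an unadjusted p under 0.05 at a dose. In the fit over all experiments Chrna4 had its smallest p at 50 mg/kg, with a change of -0.18 ± 0.14. Chrna7 had it at 0.5 mg/kg with 0.21 ± 0.15, and Chrna2 at 50 mg/kg with 0.19 ± 0.24. The adjusted p-values in limma were 0.808, 0.791 and 0.905.

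Chrna4 on chromosome 3 stood at 8.25, 7.97 and 7.90 in A vehicle and at 8.08, 7.74 and 7.67 at 50 mg/kg. The ranges overlapped. In experiment B the vehicle animals stood at 8.31, 7.67, 8.09 and 8.10 and the 30 mg/kg animals at 8.13, 8.05 and 8.31. In experiment C vehicle animals stood at 7.72, 8.29 and 7.63, and the dosed animals ran from 7.69 to 8.15. Dosed animals thus lay inside the vehicle range in experiment C. The whole range over the 39 arrays was 7.63 to 8.31, with a pooled SD within groups of 0.18. Chrna4 followed the cortical projection neuron markers, with r = 0.539 and an adjusted permutation p of 0.00797 over the 143 pairs, though rho was 0.334 with an adjusted p of 0.246. Without the 2 farthest arrays r was 0.473, and within experiments A, B and C it was 0.471, 0.602 and 0.597.

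Chrna7 on chromosome 1 stood at 8.59, 8.97 and 8.28 in A vehicle, 8.59, 8.57, 8.61 and 8.80 in B vehicle, and 8.74, 8.63 and 8.42 in C vehicle. At 50 mg/kg it stood at 8.62, 8.62 and 8.45, within the vehicle range. Its highest 2 values were 9.09 and 9.08, in animals 3 and 2 at 1 mg/kg of experiment C, beside 8.55 and 8.56 in the other 2 of that group. At 5 mg/kg in experiment C it stood at 8.58, 9.05 and 9.01. The group means ran from 8.51 at 30 mg/kg in experiment B to 8.88 at 5 mg/kg in experiment C, with a pooled SD within groups of 0.21.

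Chrna2 on chromosome 15 stood at 7.14, 6.90 and 6.64 in the vehicle animals of experiment C. At 5 mg/kg it stood at 7.29, 7.42 and 7.41, all above vehicle. It was the only one of the 10 tested member probe sets above vehicle without overlap there, against 5.91% of all probe sets. Vehicle animals of experiment A stood at 7.12, 7.65 and 7.20, and those of experiment B at 7.17, 7.54, 7.07 and 7.39. The 30 mg/kg animals of experiment B held both extremes of the 39 arrays, 7.81 in animal 2 and 6.10 in animal 4, with 7.17 in animal 3. The value of 6.10 lay under the dim limit of 6.90. The 5 mg/kg effect in B less that in C was -0.88 ± 0.43, with an adjusted p of 0.484 in limma, and rests on the 1 array of experiment B at 6.89. Of 10 member probe sets, 3 had an unadjusted p under 0.05 in that difference, against 10.2% of all, and 0 passed after adjustment, against 0%.

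**Figure D3:**
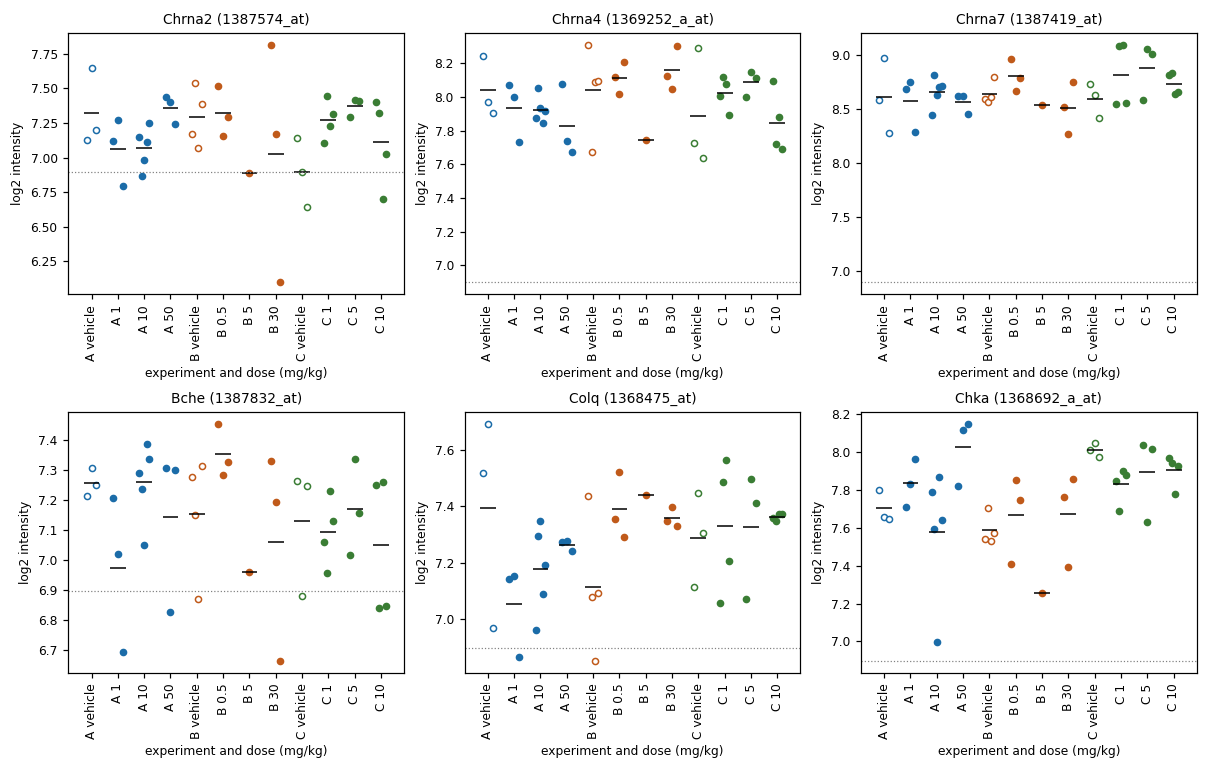
Log2 normalised intensity of Chrna2, Chrna4, Chrna7, Bche, Colq and Chka (vertical axes, each with its own range) in each array by experiment and dose. Open points are vehicle animals, bars group means and the dotted line the dim limit of 6.90. Chrna4 overlaps vehicle in every dosed group. Chka lies above vehicle at 50 mg/kg in experiment A and below it at 1 and 10 mg/kg in experiment C. Bche lies below at 1 mg/kg in A and Chrna2 above at 5 mg/kg in C. The single 5 mg/kg array of B lies outside the vehicle range for Chrna2, Chrna7, Colq and Chka. As 1 array it cannot show a separation, and the share of all probe sets outside that range was not counted.

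Bche encodes butyrylcholinesterase, which splits acetylcholine and binds organophosphates, and Colq encodes the collagen tail that anchors acetylcholinesterase to the basal lamina of synapses. Acetylcholinesterase itself was not analysed here. Bche on chromosome 2 stood at 7.21, 7.31 and 7.25 in A vehicle and at 7.21, 7.02 and 6.69 at 1 mg/kg, all below vehicle, though the highest of them lay close to the lowest vehicle animal. It was 1 of 10 member probe sets below vehicle without overlap in that group, against 5.79% of all. The 50 mg/kg animals stood at 7.31, 6.83 and 7.30. B vehicle stood at 7.28, 7.15, 6.87 and 7.31 and the 30 mg/kg animals at 7.33, 7.19 and 6.66, with overlap. In experiment C the vehicle animals stood at 7.26, 6.88 and 7.25 and the dosed animals ran from 6.84 to 7.34. In the fit over all experiments the smallest p was at 0.5 mg/kg, with a change of 0.23 ± 0.16. The adjusted p was 0.785 in limma.

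Colq on chromosome 16 stood at 7.52, 7.69 and 6.97 in A vehicle, 7.44, 7.08, 6.85 and 7.09 in B vehicle and 7.11, 7.45 and 7.31 in C vehicle. At 1 mg/kg in experiment A it stood at 7.14, 7.15 and 6.87, a change of -0.34 ± 0.17 with an adjusted p of 1.00 in limma. At 50 mg/kg the values were 7.27, 7.28 and 7.24, and at 10 mg/kg in experiment C they were 7.36, 7.35, 7.37 and 7.37. Those groups were much narrower than the vehicle groups and lay inside their ranges. The smallest p at a dose in the fit over all experiments was at 0.5 mg/kg. The change there was 0.22 ± 0.16, with an adjusted p of 0.791 in limma.

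Slc44a1 encodes choline transporter-like protein 1, which takes choline into many cell types for membrane lipids, and is known from oligodendrocytes, the cells that form myelin. Its promoter window in RefSeq GRCr8, at chr5:72858750-72858999 on the plus strand, is shown because of its base make-up. With 81.2% G or C and 42 CpG dinucleotides, it held more CpG than 99.2% of the windows, whereas the Slc5a7 window held 8 and the Chat window 11. Capitals mark the single match, a GC box on the other strand that starts 250 bases before the annotated start.
Slc44a1: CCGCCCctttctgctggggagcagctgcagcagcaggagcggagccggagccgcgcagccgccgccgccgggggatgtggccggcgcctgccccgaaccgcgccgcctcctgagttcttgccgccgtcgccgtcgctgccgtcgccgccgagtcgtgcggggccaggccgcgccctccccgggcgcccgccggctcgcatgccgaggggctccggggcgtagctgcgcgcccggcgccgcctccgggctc

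The 3 Slc44a1 probe sets did not pass at any dose over the experiments together. In experiment C 1 of them lay below vehicle without overlap at all 3 doses, and another did at 5 mg/kg only. Probe set 1370935_at stood at 8.21, 8.20 and 8.08 in C vehicle. It stood at 7.94, 7.93, 7.44 and 7.65 at 1 mg/kg, at 7.66, 7.84 and 7.89 at 5 mg/kg, and at 8.0, 7.70, 7.82 and 7.52 at 10 mg/kg. Every dosed animal of experiment C was below every vehicle animal for this probe set. Taken dose by dose, this held for 2.21%, 5.60% and 2.98% of all probe sets at 1, 5 and 10 mg/kg. The share for which it held at all 3 doses was not counted. The changes of 1370935_at were -0.42 ± 0.13, -0.37 ± 0.14 and -0.41 ± 0.13, with unadjusted p-values in limma of 0.00283, 0.0139 and 0.00408 and adjusted p-values of 0.581, 0.692 and 0.553. The 3 contrasts share the same vehicle animals. Without 1 mg/kg animal 1, the array with the high actin ratio, the first was -0.49 with an adjusted p of 0.346. Without the 3 arrays called a first repeat the changes at 1 and 10 mg/kg were -0.40 and -0.38, with adjusted p-values of 1.00 and 0.97.

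Probe set 1368480_at stood at 10.39, 9.74 and 10.70 in C vehicle and at 9.84, 9.62, 9.50 and 9.72 at 10 mg/kg. The contrast was -0.60 ± 0.21 with an adjusted p of 0.553 in limma, and 1 dosed animal lay above the lowest vehicle animal. Without vehicle animal 3 of experiment C it was -0.39, with an adjusted p of 0.97. At 1 mg/kg it stood at 9.85, 9.77, 10.63 and 9.69, and at 5 mg/kg at 9.51, 10.17 and 9.95. Probe set 1373054_at stood at 8.94, 8.91 and 9.28 in C vehicle, at 8.66, 8.60, 8.97 and 8.70 at 1 mg/kg, and at 8.74, 8.70 and 8.78 at 5 mg/kg. The 5 mg/kg animals all lay below vehicle, while those at 1 mg/kg overlapped it. Its changes at 1 and 5 mg/kg were -0.31 ± 0.13 and -0.31 ± 0.14, with adjusted p-values of 0.690 and 0.743 in limma. Without vehicle animal 3 of experiment C they were -0.19 and -0.19, with adjusted p-values of 0.902 and 0.974. At 10 mg/kg it stood at 9.10, 8.55, 9.10 and 8.80 and overlapped vehicle. Within experiment C, 2 of 10 member probe sets had an unadjusted p under 0.05 at 1 mg/kg against 6.69% of all, 2 at 5 mg/kg against 6.52% and 2 at 10 mg/kg against 6.63%. All are probe sets of the 1 gene Slc44a1, and after adjustment 0 of 10 passed at each of these doses, against 0% of all. Member probe sets below vehicle without overlap numbered 2 of 10 at 1 mg/kg against 2.21%, 2 at 5 mg/kg against 5.60% and 3 at 10 mg/kg against 2.98%.

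In experiment A probe set 1370935_at ran the other way. It stood at 7.81, 7.84 and 7.78 in vehicle, at 7.88, 7.93, 7.99, 7.97 and 8.08 at 10 mg/kg and at 7.95, 7.88 and 7.90 at 50 mg/kg. All animals at those 2 doses were above vehicle, by small amounts, while those at 1 mg/kg stood at 7.81, 7.72 and 7.73. It was 1 of 10 member probe sets above vehicle without overlap at 10 mg/kg, against 2.12% of all. At 50 mg/kg 3 of 10 were, against 8.35%, namely this one, Slc5a7 and Chka. The 10 mg/kg effect in A less that in C was 0.57 ± 0.18 for 1370935_at and 0.92 ± 0.30 for 1368480_at, both with an adjusted p of 0.607 in limma. These were the 2 of 10 members with an unadjusted p under 0.05 in that difference, against 6.62% of all, and 0 passed, against 0%. At 1 mg/kg the A and C effects differed with an unadjusted p under 0.05 in 0 of 10 members, against 7.35% of all, and with an adjusted p under 0.05 in 0, against 0%. In experiment B the vehicle animals stood at 7.84, 7.95, 7.34 and 7.87 for 1370935_at, the 0.5 mg/kg animals at 7.83, 8.03 and 7.65 and the 30 mg/kg animals at 7.87, 7.63 and 7.80, both overlapping. The single 5 mg/kg array stood at 8.11, above every B vehicle animal, and the 5 mg/kg effect in B less that in C was 0.72 ± 0.24 with an adjusted p of 0.362 in limma. For 1373054_at this difference was 0.60 ± 0.24 with an adjusted p of 0.411. Both rest on that array, and with the deposited values unscaled they reverse to -0.57 and -0.66, with adjusted p-values of 0.0349 and 0.0135 in limma.

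**Figure D4:**
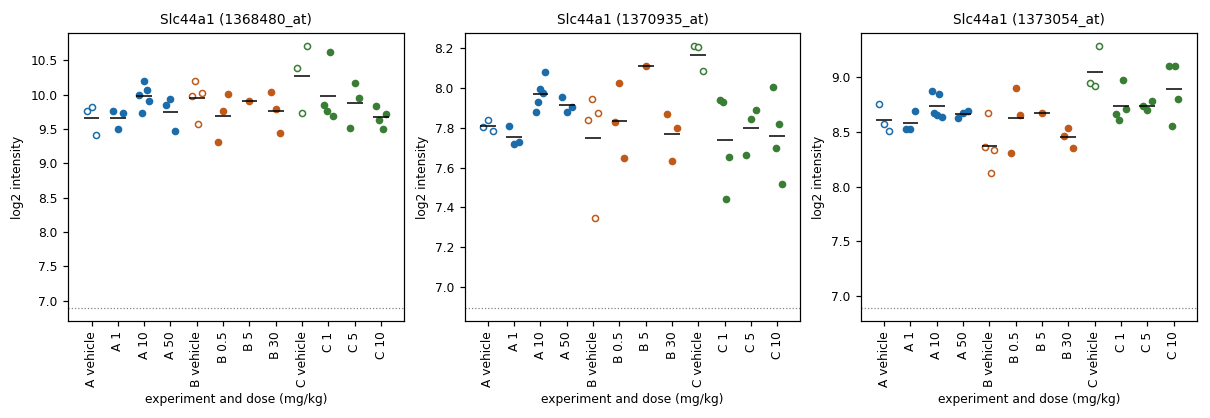
Log2 normalised intensity of the 3 Slc44a1 probe sets (vertical axes, each with its own range) in each array by experiment and dose. Open points are vehicle animals, bars are group means and the dotted line is the dim limit of 6.90. The vehicle animals of experiment C are the highest vehicle group by mean in all 3 panels. For 1370935_at the dosed animals of experiment C all lie below them, and the share of all probe sets for which this holds was not counted.

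The vehicle animals themselves differed between experiments at 1 of 10 member probe sets, about as often as over all probe sets. For Slc44a1 probe set 1373054_at they averaged 8.61 ± 0.13 (n = 3) in experiment A, 8.37 ± 0.23 (n = 4) in B and 9.04 ± 0.20 (n = 3) in C. The F test over the 3 vehicle groups gave an adjusted p of 0.00640 in limma, and 0.0119 without the 3 arrays called a first repeat. Without vehicle animal 3 of experiment C it gave 0.0751 and did not pass. It was 1 of 10 members called, against 7.80% of all probe sets, and 4 of 10 had an unadjusted p under 0.05, against 22.6%. The other 3 were Slc44a1 1370935_at with an adjusted p of 0.0821, 1368480_at with 0.193 and Chka with 0.154. For all 3 Slc44a1 probe sets the C vehicle mean was the highest of the 3 vehicle means.

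Of the 3 Slc44a1 probe sets, 2 correlated with myelin genes at an adjusted permutation p under 0.05. Against the mean of the 9 tested of 12 markers of oligodendrocytes and myelin, 1368480_at gave r = 0.868 and rho = 0.885 over the 39 arrays. The permutation p was 1e-05, the smallest possible, and 9.53e-04 after adjustment over 143 pairs. Within experiments A, B and C r was 0.849, 0.901 and 0.867, and without the 2 farthest arrays it was 0.888. Probe set 1373054_at gave r = 0.610 with an adjusted p of 0.00453, and r was 0.515 without the 2 farthest arrays. Probe set 1370935_at gave r = 0.329 with an unadjusted permutation p of 0.0714 and an adjusted p of 0.31. Its rho was 0.379, with an unadjusted permutation p of 0.0268 and an adjusted p of 0.18. Within experiments A, B and C its r was 0.613, 0.495 and 0.154. The myelin mean was 11.49 ± 0.38 (n = 3) in C vehicle and 11.09 ± 0.38 (n = 4), 11.17 ± 0.19 (n = 3) and 11.00 ± 0.08 (n = 4) at 1, 5 and 10 mg/kg, with 0 of 9 markers higher at each dose, against 49.0%, 50.5% and 50.5% of all probe sets. Their summed intensity ran from 32024 to 46498 in C vehicle. It ran from 25187 to 41789 at 1 mg/kg, from 30219 to 37149 at 5 mg/kg and from 27970 to 32761 at 10 mg/kg. The range at each dose overlapped that of vehicle. In vehicle animals of experiments A and B the myelin mean was 11.03 ± 0.27 and 11.14 ± 0.33. The part of myelin content in the Slc44a1 values was not tested.

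Chka encodes choline kinase alpha, the first enzyme of the path from choline to phosphatidylcholine. On chromosome 1, it stood at 7.80, 7.66 and 7.65 in A vehicle and at 7.82, 8.12 and 8.15 at 50 mg/kg, all above vehicle though the lowest only just. The change within experiment A was 0.33 ± 0.16, or 1.25-fold, with an adjusted p of 0.525 in limma, and over all experiments the 50 mg/kg coefficient was 0.26 ± 0.15 with an adjusted p of 0.687. Within experiment A at 50 mg/kg, 1 of 10 members, Slc5a7, had an unadjusted p under 0.05, against 9.56% of all, and 0 passed, against 0.0360%. In the other contrasts of experiments A and B limma called 0 of 10, against 0% of all probe sets at 1 mg/kg and 0.00900% at 10 mg/kg in A, and 0% at 0.5, 0.0180% at 5 and 0% at 30 mg/kg in B. An unadjusted p under 0.05 was reached by 0 of 10 in each, against 3.21% and 2.89% in A and 6.68%, 7.21% and 10.2% in B. At 10 mg/kg in experiment A Chka ran from 7.0 in animal 3 to 7.87, with the vehicle range inside. B vehicle stood at 7.54, 7.70, 7.53 and 7.57, and the 30 mg/kg animals at 7.76, 7.39 and 7.86 straddled them. C vehicle stood at 8.01, 8.05 and 7.98, above the B vehicle animals. The 1 mg/kg animals at 7.85, 7.69, 7.90 and 7.88 and the 10 mg/kg animals at 7.97, 7.95, 7.78 and 7.93 all lay below those vehicle animals, and the 5 mg/kg animals at 8.04, 7.63 and 8.02 overlapped.

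**Figure D5:**
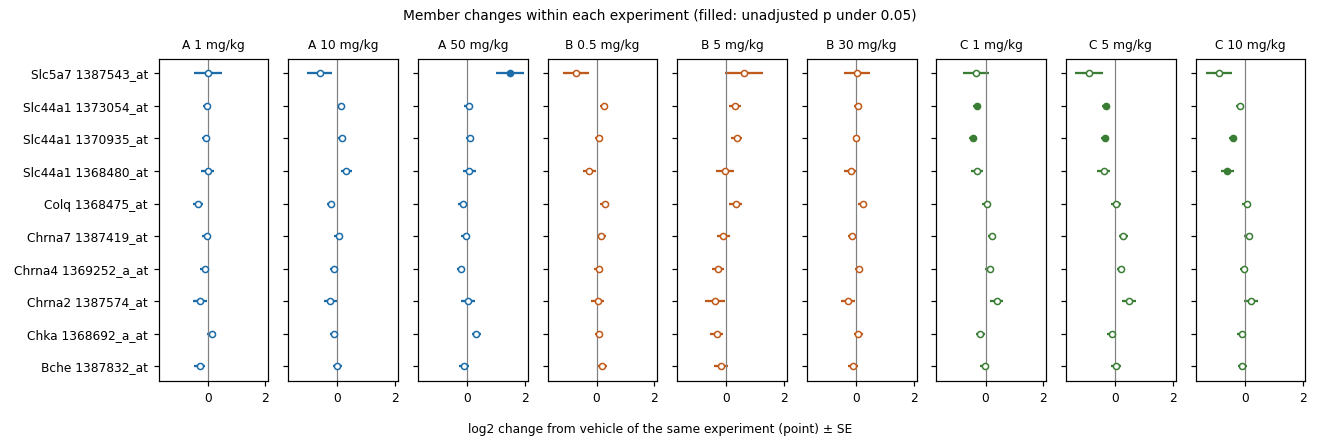
Log2 change from the vehicle animals of the same experiment (horizontal axes, ± SE) for the 10 tested member probe sets in each of the 9 experiment and dose contrasts. Filled points have an unadjusted p under 0.05 in limma, and none has an adjusted p under 0.05. Slc5a7 has the widest errors and the largest change, 1.48 ± 0.48 at 50 mg/kg in experiment A.

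Other genes of the same pathway were counted by list. Of 14 other nicotinic subunits and chaperones on the array, 12 were too dim, among them Chrnb2, the partner of Chrna4, and the 2 tested were Chrna1 and Lynx1. Of the other cholinesterase and vesicle genes, the vesicular acetylcholine transporter Slc18a3 was too dim and P4hb was tested. Of 13 other genes of choline transport and phosphocholine synthesis on the array 11 were tested, and all 5 muscarinic receptors were. In each of the 4 lists 0 tested genes passed at any dose, in the F test or in the trend. With an unadjusted p under 0.05 limma gave, in the order of the lists, 1 of 2, 0 of 1, 2 of 11 and 1 of 5 at 0.5 mg/kg, against 7.62% of all probe sets, and 0 in every list at 50 mg/kg, against 7.99%. It also gave 1 of 5 muscarinic receptors at 10 mg/kg, against 2.68%, and 1 of 11 choline transport and phosphocholine genes in the F test and in the trend, against 6.19% and 7.66%. The counts at 1, 5 and 30 mg/kg were 0 in all 4 lists. The smallest p belonged to Chkb, the second choline kinase, at 0.5 mg/kg, with a change of -0.51 ± 0.16 and an adjusted p of 0.467. The muscarinic receptors had a median change of 0.20 at 10 mg/kg and of -0.069 at 50 mg/kg. The choline transport and phosphocholine list gave 0.050 and -0.017 at the same doses.

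The genes most like each member in pattern were taken as the 3 with the highest Pearson correlation over the 39 arrays after centring on experiment means. These values describe arrays that share their normalization and their pieces of tissue. For Slc5a7 they were Ecel1 at 0.79, Slc32a1 at 0.73 and Drd1 at 0.72. For Slc44a1 they were Cnp at 0.89, Cldn11 at 0.86 and Gsn at 0.86 with 1368480_at, Mobp at 0.68, Slc22a23 at 0.67 and Mal at 0.66 with 1373054_at, and Wipf1 at 0.63, Chuk at 0.63 and Fah at 0.56 with 1370935_at. The 3 probe sets of this gene therefore had different nearest genes. Chrna4 was nearest to Htr5a at 0.65, Septin5 at 0.64 and Twf2 at 0.62. Chrna7 was nearest to Mxd1 at 0.66, Taf6 at 0.66 and Aif1 at 0.65, and Chrna2 to Apob at 0.57, Itpr2 at 0.56 and Slc7a1 at 0.56. Bche was nearest to Tjp1 at 0.66, Kdm3b at 0.62 and Or6f2 at 0.58. Colq was nearest to Ube2c at 0.60, Sox4 at 0.59 and Bok at 0.58, and Chka to Rhov at 0.62, Trpv5 at 0.61 and Calcr at 0.60. The likeness of the members outside Slc5a7 and 1368480_at stayed below 0.70.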

How the data were processed

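The deposited table holds linear signal intensity per probe set of an Affymetrix rat array, with no detection calls. How the authors computed it was not given in the sources used here. RNA was extracted with Qiagen RNeasy and labelled with biotin by an Enzo procedure, per the labels' protocols. Such values hold no depth but their signal. Precision is limited by the number of arrays, by low signal and by the spread between animals. The pooled SD within groups was 0.63 for Slc5a7 and 0.16 to 0.31 for the other tested member probe sets. Animals are separate rats by the numbers in the titles. For B vehicle, part of the description mentions 1 mg/kg, and the titles were followed.

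Each array was scaled to the common median, values under the 5th percentile (11.04) were raised to it, and log2 values were quantile normalized. Probe sets with a mean under the 30th percentile were left out of tests. Fits used limma 3.58.1 (R 4.3.3), with experiment and dose as factors and a prior variance that followed the mean. Second fits took log2(dose + 1) as a slope, or a mean per experiment and dose for contrasts within experiments, between experiments at a shared dose, and among vehicle groups. The single 5 mg/kg array of experiment B is assumed to vary like the other groups. Correlations used 100000 permutations within experiments. The 2 farthest arrays were chosen by the marker mean, or by Slc5a7 for its pair with Chat. Arrays far out in the other value of a pair were not left out. On simulated data, changes on the log2 scale were given at 50 mg/kg to a random part of the 11106 probe sets. Of these, 92.9% of changes of 1 and 99.0% of changes of 2 were recovered. The simulated noise was independent between probe sets, so variation shared by genes of a tissue piece was absent. These rates therefore do not give the power for a member, and the Slc5a7 change of 1.47 ± 0.44 did not pass.

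The rule named every member probe set, its changes with an unadjusted p under 0.05 and its dose with the smallest p, the 3 genes most like it, and genes of other lists with an unadjusted p under 0.01 at a dose. Non-overlapping groups were described in addition. Members, gene lists and tests were chosen with earlier results of these data known. Promoter windows are from RefSeq for 7 of 9 members, and Chrna2 and Colq have none here. Figures used matplotlib 3.10.9 under python 3.11.15. Alternatives changed the scaling, floor, dim filter, prior variance, array weights, arrays and experiments used and the replicate block.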

Additional observations from a re-analysis of the deposited data

Results flagged for a closer look

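In the vehicle animals of experiment B, Slc5a7 stood at 8.60 in animal 2 and between 6.70 and 6.82 in the other 3. The gap to the nearest animal was 0.934 of the whole range of the 4 values, which exceeds Dixon's 95% limit. Chat in the same animal stood at 7.23 against 5.56 to 6.22 in the others, and the mean of the 12 striatal markers was 10.72 against 8.59 to 9.96. The part of those markers in the high Slc5a7 value was not tested. This was the only value to pass the limit among 44 sets of member probe set and group with 4 or 5 arrays, and chance alone passes about 1 set in 20.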

How the results depend on the processing

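Of 1099 counts of called members under an alternative, 1092 equalled the reported count, and 2328 of 2335 single results kept their direction and their side of the threshold. With the deposited values and no scaling, 4 of 10 members were called at 5 mg/kg, 9 at 5 mg/kg within experiment B and 9 in the B less C difference at 5 mg/kg, against 0 in each as reported. In that setting the B less C difference reversed to -0.57 for Slc44a1 1370935_at and -0.66 for 1373054_at, from 0.72 and 0.60, and was -2.19 for Chrna2. This setting leaves the 1 array of experiment B at that dose on its own scale, with a median intensity of 112, the lowest of the 39 arrays, and 5115 of all 11106 probe sets were called at 5 mg/kg. For the vehicle groups of the 3 experiments, 1 member was called as reported, 2 with array weights, 0 with all 46 columns and 0 with the replicate block. Leaving out each array gave 0 to 1, with 0 only without C vehicle replicate 3. Slc44a1 1373054_at then had adjusted p-values of 0.817 with all columns and 0.288 with the block, and 1370935_at had 0.0397 with array weights. The cause was not tested, beyond the other row order of the 7 columns.

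Slc5a7 at 50 mg/kg ran from 1.27 to 1.68 when each array was left out, with adjusted p-values from 0.20 to 0.996, and from 1.00 to 1.56 in the other settings, from 0.152 to 1.00. At 0.5 mg/kg it ran from -1.27 to -0.59 when each array was left out and was -0.15 with all 46 columns. The replicate block gave 1.56 at 50 mg/kg and called no member at any dose. Animals with the same number did not deviate together: the median correlation was 0.0035 over 43 pairs, against 0.0029 over 135 pairs of different number, so the numbers were taken as names only. Over all probe sets, the 866 called among vehicle groups ran from 292 to 1136 when each array was left out and from 0 to 1526 in other settings, and the 2 called at 50 mg/kg from 0 to 5 and from 0 to 66. Low signal limits Slc5a7 and Chat most, with 21 and 26 of 39 arrays under the dim limit. Bche, Chrna2 and Colq had means of 7.15, 7.18 and 7.28, not far above it, with 7, 6 and 2 arrays under it.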
